A study of Mus musculus with 14 samples.

Results

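Type I interferon response genes are genes that cells switch on when the cytokines of the interferon-α and interferon-β family bind their receptor. The 41 genes described here were listed by symbol and matched to the Entrez identifiers of the table, and all 41 were found among its 27179 genes. The material is bulk RNA from CD4 T cells of C57BL/6 mice, cultured in vitro for 3.5 days after isolation as naive cells, activated on plates with antibodies against CD3 and CD28, then sorted. The 3 groups differ in the culture condition. Th1 is a T helper 1 culture (5 libraries), TfhA is a culture toward follicular helper T cells, the T cells that help B cells, in which TGF-β was blocked with an antibody (4 libraries, replicates 1, 2, 4 and 5), and Tfh5 is that follicular helper culture with 5 ng/ml TGF-β (5 libraries). No allele or other agent that separates the groups is named in the labels, and all groups share the strain, the activation and the culture time. These are cultured cells, so they stand for polarised T cells in a dish, and the labels do not say whether replicates came from separate animals or cultures. P-values therefore measure the spread between these libraries, which may be technical.

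In the textbook pathway, type I interferons bind a receptor made of IFNAR1 and IFNAR2. Its kinases JAK1 and TYK2 then phosphorylate STAT proteins, among them STAT2, which joins IRF9 in a complex that binds the interferon-stimulated response element, a short repeated DNA motif in the promoters of induced genes. Many induced genes are also reached by interferon-γ through the gamma-activated element, and T cells keep a low resting level of many of them without infection. The products include sensors of foreign nucleic acid, inhibitors of viral RNA and protein production, and feedback regulators that damp or extend the signal.

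Of the 41 genes, 31 had a promoter in the RefSeq table for GRCm38.p6, which holds 250 bases before to 50 bases after each start. The core of the response element was searched on both strands as 2 copies of GAAA with any 2 bases between them, and 14 of the 31 promoters held it (45.2%), against 3.99% of 27025 genes and 3.44% of all 32851 promoter windows of that length. The stretches below show it for genes that recur in the results: Isg15 with 3 overlapping cores, Ifit1, Ifit3, Ifit3b, Oas1a and Oas3. They also show it for Ifi211, which had no count in Tfh5, and Bst2, whose difference between Tfh5 and TfhA was small. Each is printed 5′ to 3′ on the strand of the gene, all of it before the start, with the bases of the core in capitals. A core on the other strand reads as 2 copies of TTTC.
Isg15: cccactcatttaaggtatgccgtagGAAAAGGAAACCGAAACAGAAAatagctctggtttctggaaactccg
Ifit1: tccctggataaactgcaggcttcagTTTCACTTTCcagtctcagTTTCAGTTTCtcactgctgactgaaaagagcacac
Ifit3: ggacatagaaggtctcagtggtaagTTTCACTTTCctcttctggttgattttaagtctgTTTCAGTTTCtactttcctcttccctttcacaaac
Ifit3b: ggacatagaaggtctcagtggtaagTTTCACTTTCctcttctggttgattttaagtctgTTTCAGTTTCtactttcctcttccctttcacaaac
Oas1a: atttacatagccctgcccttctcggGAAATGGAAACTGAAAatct
Ifi211: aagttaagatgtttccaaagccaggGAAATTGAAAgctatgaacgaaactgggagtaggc
Oas3: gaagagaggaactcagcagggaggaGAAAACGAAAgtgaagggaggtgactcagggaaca
Bst2: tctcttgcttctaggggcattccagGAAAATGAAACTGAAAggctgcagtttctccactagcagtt
Their positions in GRCm38.p6 are chr4:156200850-156200921 (minus strand) for Isg15, chr19:34640760-34640838 (plus) for Ifit1, chr19:34583348-34583441 (plus) for Ifit3 and chr19:34607744-34607837 (plus) for Ifit3b. Those of the others are chr5:120907526-120907570 (minus) for Oas1a, chr1:173913049-173913108 (minus) for Ifi211, chr5:120777700-120777759 (minus) for Oas3 and chr8:71537562-71537627 (minus) for Bst2. The stretches of Ifit3 and Ifit3b differed in 0 of 94 bases.

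Libraries held 8805921 to 16108059 counts. Levels are given as CPM, counts scaled to library size with TMM factors, as mean ± SD over 5 Th1, 4 TfhA and 5 Tfh5 libraries. All 14 libraries entered one edgeR fit. Adjusted p-values are from its two-sided quasi-likelihood F test, adjusted over 13075 genes by Benjamini-Hochberg. The SE after each log2 fold change was derived as the absolute log2 fold change divided by the square root of F. A difference was called at an adjusted p under 0.05. The CD4 T cell markers were highest in Tfh5, at a sum of 5830 to 6125 CPM, against 3385 to 4277 for TfhA and 3245 to 3500 for Th1, and all 5 were called higher in Tfh5 than in either other group, against 27.4% (TfhA) and 31.5% (Th1) of all genes. Markers of B cells and of myeloid cells reached at most 7.04 CPM each, and those of CD8 and NK cells at most 36.8, most of it Cd8b1, with the defining Ncr1 and Adgre1 at 0 counts. Marker genes that differed between groups are given beside the patterns below. Among plasmacytoid dendritic cell markers, the defining Siglech had 0 counts and the sum came from Irf8 and Tcf4, which T cells also express. Ifng and Tbx21, genes of Th1 cells, were highest in Th1, and Maf and Smad7, genes that TGF-β raises, were highest in Tfh5.

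Cells cultured toward follicular helper T cells with TGF-β had lower levels of most of these genes than cells of the same culture with TGF-β blocked. Of 40 tested members, 38 were lower in Tfh5 than in TfhA, 0 were higher and 2, Irf9 and Sp100, did not pass. At an unadjusted p under 0.05 the fit in edgeR also had 0 higher, and so had DESeq2 at its adjusted p. Over all tested genes, 30.1% were lower and 27.4% higher in this comparison. A total of 32 members were at least 2-fold lower, against 13.1% of all genes, and 19 were at least 8-fold lower, against 3.03%. In 38 members every Tfh5 library lay below every TfhA library and in 0 above, against 23.4% and 20.8% of all genes. The median log2 fold change was -2.75 over the members and -0.01 over all genes. In bulk RNA, fewer cells of a type and less RNA per cell cannot be told apart.

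Against Th1, the cells with TGF-β were also lower, while cells with TGF-β blocked differed from Th1 in both directions. In Tfh5 minus Th1, 34 of 40 members were lower and 0 were higher, against 33.0% and 31.5% of all genes, and the median log2 fold change was -2.22 against -0.01 over all genes. Here too 0 were higher at an unadjusted p under 0.05 in edgeR, and 0 in DESeq2 at its adjusted p. In all, 30 members were at least 2-fold lower (15.3% of all genes) and 15 at least 8-fold lower (4.37%). All Tfh5 libraries lay below all Th1 libraries in 32 members and above in 0, against 26.5% and 23.7% of all genes. In TfhA minus Th1, 14 members were higher, 11 were lower and 15 did not pass, against 23.2% and 21.6% of all genes, with a median of 0.18 against 0.03. There were 10 at least 2-fold higher (5.37% of all genes) and 4 at least 2-fold lower (8.29%). The TfhA libraries lay above all Th1 libraries in 13 members and below in 12, against 19.3% and 18.7%. The 3 comparisons share samples, so their counts are not independent of each other.

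**Figure D1:**
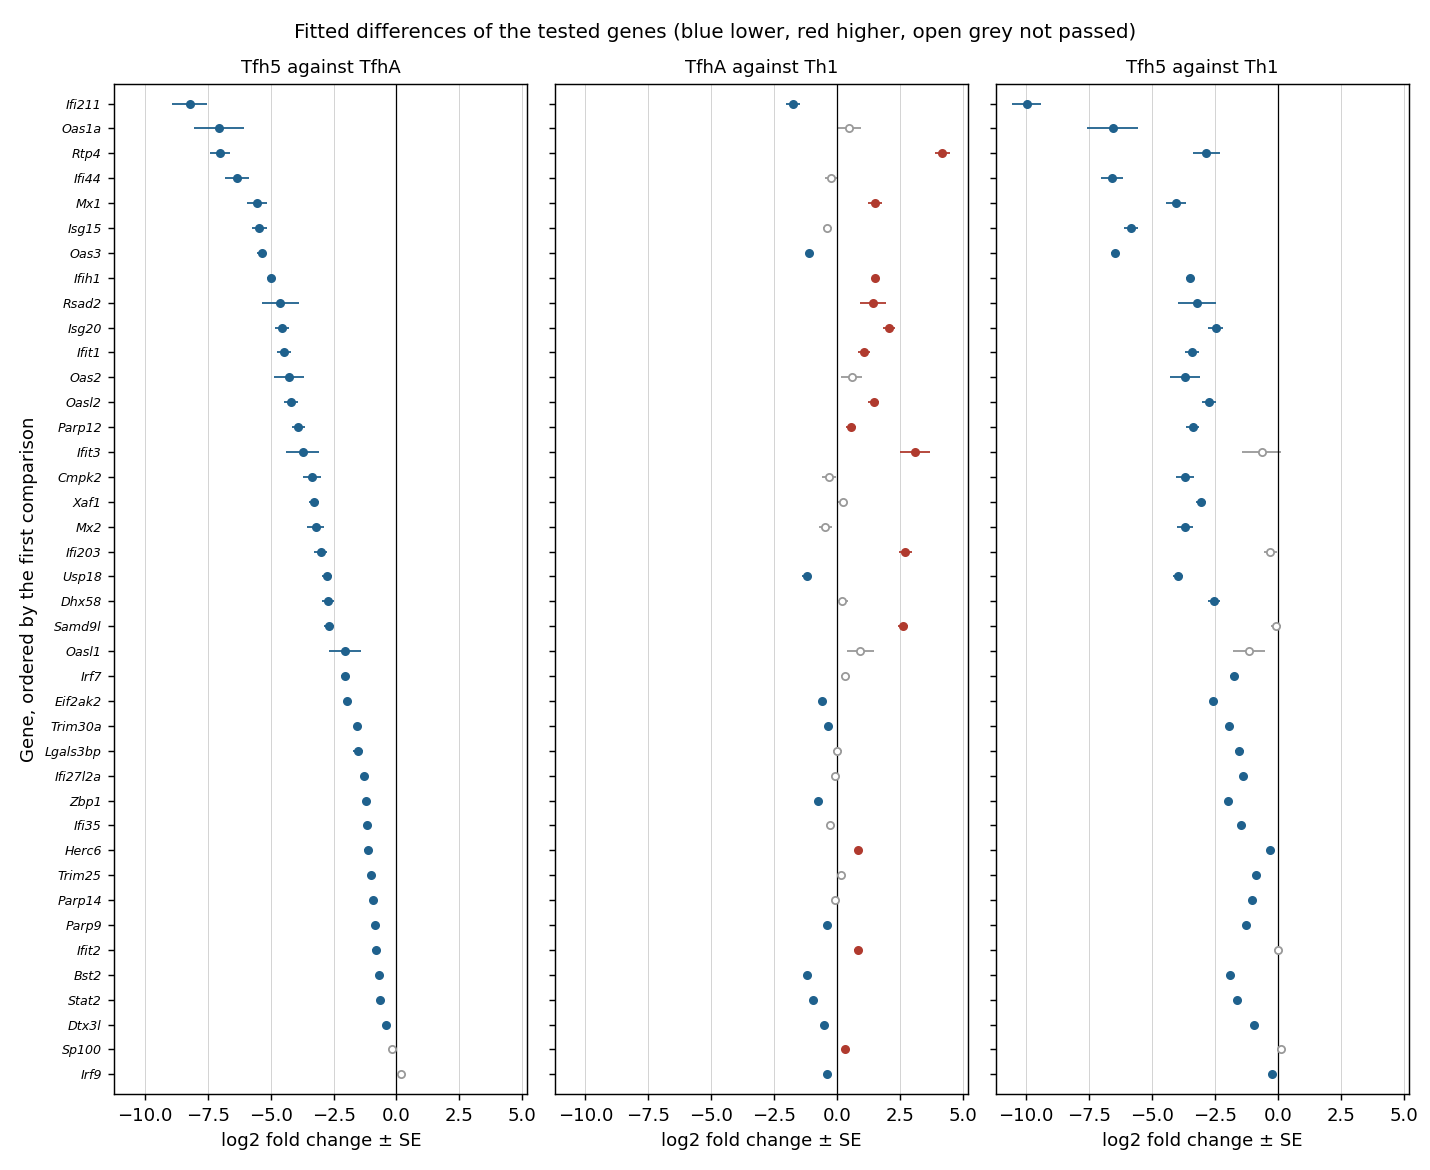
Fitted log2 fold changes ± SE of the 40 tested genes (horizontal axis) for the 3 comparisons, ordered by Tfh5 minus TfhA; blue is lower, red is higher and open grey did not pass. In the first panel 38 genes lie left of 0 in blue, and in the second 14 are red and 11 blue; values of Ifi211 and Oas1a against Tfh5 are fitted against 0 counts and are no bound.

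The signalling and feedback genes carry or damp the signal, and of these 4, 3 were lower in Tfh5 than in TfhA and 4 lower than in Th1. Irf9, the DNA-binding part of its complex with STAT2, had 106, 98.5, 96.2, 95.1 and 95 CPM in Th1, 86.8, 75.4, 61.7 and 72.6 in the TfhA libraries, and 93.9, 84.7, 86.4, 85.3 and 68.5 in Tfh5. TfhA and Tfh5 overlapped, with a log2 fold change of 0.17 ± 0.10 (adjusted p = 0.159), and every library of both lay below every Th1 library. Irf9 was 1.32-fold lower in TfhA than in Th1 (adjusted p = 0.00272) and 1.17-fold lower in Tfh5 (adjusted p = 0.042). The last call did not hold when any 1 of the 5 Th1 libraries or any of Tfh5 replicates 2 to 5 was left out, with an adjusted p of 0.0546 to 0.142, and without Tfh5 replicate 5 Irf9 was higher in Tfh5 than in TfhA (log2 0.24, adjusted p = 0.0451). Stat2, the factor that binds IRF9, had 173, 142, 143, 144 and 158 CPM in Th1, 82.4, 68.8, 85.8 and 74.6 in the TfhA libraries, and 45.7, 49.7, 54.1, 53 and 45.3 in Tfh5. The 3 groups were separate, with Th1 highest and Tfh5 lowest. Its log2 fold change was -0.65 ± 0.10 in Tfh5 minus TfhA (adjusted p = 3.29e-06), -0.96 ± 0.10 in TfhA minus Th1 (adjusted p = 1.63e-08) and -1.62 ± 0.09 in Tfh5 minus Th1 (adjusted p = 9.46e-14).

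Irf7, a factor that amplifies interferon production and is itself induced, had 29.4, 28.1, 20.7, 24.5 and 23.1 CPM in Th1, 37.6, 27.2, 29 and 29.7 in the TfhA libraries, and 8.57, 5.71, 10, 5.98 and 7.1 in Tfh5. TfhA and Th1 overlapped (log2 0.30 ± 0.15, adjusted p = 0.114) and all Tfh5 libraries lay below both. It was 4.13-fold lower in Tfh5 than in TfhA (adjusted p = 8.58e-11) and 3.37-fold lower than in Th1 (adjusted p = 4.53e-10). Usp18, the protease that removes ISG15 from proteins and inhibits signalling at IFNAR2, had 43, 40.8, 32.3, 33.8 and 37.5 CPM in Th1, 18.7, 14.6, 18.9 and 12.7 in the TfhA libraries, and 3.05, 1.63, 2.92, 3.23 and 1.27 in Tfh5. The groups were again separate and in the order of Stat2. Usp18 was 6.78-fold lower in Tfh5 than in TfhA (adjusted p = 3.58e-11), 2.3-fold lower in TfhA than in Th1 (adjusted p = 4.20e-06) and 15.6-fold lower in Tfh5 than in Th1 (adjusted p = 6.08e-15).

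All 6 nucleic acid sensors were lower in Tfh5 than in TfhA, and 5 of 6 lower than in Th1. Ifih1, which encodes MDA5, a sensor of long double-stranded RNA, lies at chr2:62595618-62646255 and had 32.8, 41.4, 42.8, 37.2 and 39.8 CPM in Th1, 117, 100.4, 96.6 and 126 in the TfhA libraries, and 3.62, 5.0, 2.17, 3.32 and 3.14 in Tfh5. TfhA stood above Th1 and Tfh5 below it, with no library out of place. Ifih1 was 32-fold lower in Tfh5 than in TfhA (log2 -5.00 ± 0.16, adjusted p = 2.32e-18), 2.83-fold higher in TfhA than in Th1 (adjusted p = 6.53e-10) and 11.3-fold lower in Tfh5 than in Th1 (adjusted p = 3.81e-16). Dhx58, which encodes LGP2, a helicase that works with MDA5, had 24.6 ± 5.01 CPM in Th1, 28.4 ± 4.77 in TfhA and 4.32 ± 2.26 in Tfh5. It was 6.64-fold lower in Tfh5 than in TfhA (adjusted p = 7.27e-10) and 5.75-fold lower than in Th1 (adjusted p = 1.08e-09), while TfhA and Th1 did not pass (log2 0.21 ± 0.21, adjusted p = 0.454). Zbp1, a sensor of Z-form nucleic acid, had 273 ± 24.5 CPM in Th1, 162 ± 22.2 in TfhA and 70.2 ± 4.61 in Tfh5, and Eif2ak2, which encodes the double-stranded RNA-dependent kinase PKR, had 111 ± 7.78 CPM in Th1, 73.4 ± 12.8 in TfhA and 18.8 ± 3.96 in Tfh5. Both were lower in TfhA than in Th1 and lower again in Tfh5, by 2.31-fold and 3.89-fold against TfhA (adjusted p = 1.44e-10 and 1.08e-11). The span of Eif2ak2 overlaps that of the pseudogene Gm6548, which had 14277 counts, by 2041 bases, so its level depends on how reads there were assigned.

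Ifi203 and Ifi211 belong to the mouse PYHIN family of nucleic acid binding proteins, and they went opposite ways between TfhA and Th1. Ifi203 had 1.5, 2.7, 2.72, 3.33 and 2.82 CPM in Th1, 16.6, 12.6, 18.5 and 21 in the TfhA libraries, and 1.9, 2.65, 2.45, 1.04 and 2.54 in Tfh5. TfhA alone was high, and Th1 and Tfh5 overlapped (log2 -0.29 ± 0.26, adjusted p = 0.342). Ifi203 was 6.57-fold higher in TfhA than in Th1 (adjusted p = 1.60e-09) and 8.04-fold lower in Tfh5 than in TfhA (adjusted p = 2.17e-10). Ifi211 had 8.73, 13.5, 8.32, 10.5 and 10.3 CPM in Th1, 4.32, 1.88, 2.49 and 3.4 in the TfhA libraries, and 0 in every library of Tfh5, from 731, 134 and 0 counts over the groups. It was highest in Th1 and not detected in any Tfh5 library. Against a floor of 3 counts over the Tfh5 group (0.0547 CPM), it was, over the summed counts of each group, at least 56.2-fold lower in Tfh5 than in TfhA and at least 187-fold lower than in Th1 (adjusted p = 2.25e-09 and 2.40e-12), and TfhA was 3.37-fold lower than Th1 (adjusted p = 1.76e-05). Of the 50-base windows of its transcripts, 72.8% also occur in another gene, foremost Mndal, and for Ifi203 this was 12.2%. How such reads were counted is not stated in the labels, so both levels are uncertain. Mndal itself had 14.8 ± 1.57 CPM in Th1, 42.2 ± 7.63 in TfhA and 2.98 ± 0.871 in Tfh5.

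The IFIT genes encode proteins that bind viral RNA and block its translation. All 3 tested members were higher in TfhA than in Th1 and lower in Tfh5 than in TfhA. Ifit1 had 9.16 ± 0.788 CPM in Th1, 19.2 ± 5.11 in TfhA and 0.864 ± 0.588 in Tfh5, and was 22.1-fold lower in Tfh5 than in TfhA (adjusted p = 2.29e-12), 2.1-fold higher in TfhA than in Th1 (adjusted p = 0.000379) and 10.5-fold lower in Tfh5 than in Th1 (adjusted p = 2.05e-10). Ifit2 had 10.8 ± 1.18 CPM in Th1, 19.1 ± 1.61 in TfhA and 10.7 ± 1.61 in Tfh5. Its Tfh5 and Th1 levels overlapped (log2 0.00 ± 0.14, adjusted p = 0.982), unlike those of Ifit1, and TfhA was 1.78-fold above Th1 and 1.77-fold above Tfh5 (adjusted p = 5.16e-05 and 3.46e-05). Ifit3 was scarce, with 23, 125 and 11 counts over Th1, TfhA and Tfh5. It was 8.48-fold higher in TfhA than in Th1 and 13.2-fold lower in Tfh5 than in TfhA (adjusted p = 0.000146 and 3.15e-05), a fold that became 27.8 without Tfh5 replicate 1, and Tfh5 and Th1 did not pass (log2 -0.64 ± 0.78, adjusted p = 0.487). Ifit3b was too low for the test, with 8, 37 and 2 counts. Its TfhA level was 23.3 times that of Tfh5, with a 95% counting interval of 6.00 to 199.3. These copies share 51.2% (Ifit3) and 45% (Ifit3b) of their 50-base windows, so their split is uncertain.

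The OAS genes encode enzymes, or relatives of them, that make short oligoadenylates on sensing double-stranded RNA and so activate RNase L. All 5 were lower in Tfh5 than in TfhA and 4 of 5 lower than in Th1. Oas3, at chr5:120753098-120777684, had 214, 166, 157, 166 and 148 CPM in Th1, 100.1, 75.5, 76.8 and 62.3 in the TfhA libraries, and 2.57, 2.24, 1.7, 1.42 and 1.72 in Tfh5. The groups were separate in the order Th1, TfhA, Tfh5. It was 40.9-fold lower in Tfh5 than in TfhA (log2 -5.35 ± 0.17, adjusted p = 2.85e-18), 2.16-fold lower in TfhA than in Th1 (adjusted p = 1.38e-07) and 88.3-fold lower in Tfh5 than in Th1 (adjusted p = 2.91e-20). Oasl2 went the other way between TfhA and Th1, with 3.91 ± 0.565 CPM in Th1, 10.7 ± 2.66 in TfhA and 0.564 ± 0.195 in Tfh5. It was 2.73-fold higher in TfhA than in Th1 (adjusted p = 9.29e-06) and 18.2-fold lower in Tfh5 than in TfhA (adjusted p = 4.01e-12).

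The remaining OAS genes were low in all groups. Oas1a had 68, 59 and 0 counts over Th1, TfhA and Tfh5. Tfh5 was at least 24.7-fold below TfhA against the same floor (adjusted p = 3.43e-06 against TfhA and 7.56e-06 against Th1), while TfhA and Th1 did not pass (log2 0.48 ± 0.47, adjusted p = 0.43). Of its windows, 57.6% also occur in another gene, foremost Oas1g, so its level is uncertain. Oas2 had 2.02 ± 0.44 CPM in Th1, 3.02 ± 1.08 in TfhA and 0.151 ± 0.218 in Tfh5, 19.3-fold lower in Tfh5 than in TfhA (adjusted p = 1.16e-06) and 12.9-fold lower than in Th1 (adjusted p = 6.32e-06), with TfhA and Th1 not passing (log2 0.58 ± 0.42, adjusted p = 0.278). Of its 8 counts in Tfh5, 5 came from replicate 4, and the other 4 libraries give ratios of 45.1 (95% counting interval 15.1 to 221) to TfhA and 29.8 (10 to 146) to Th1. Oasl1, which in mice represses translation of Irf7, had 0.565 ± 0.368 CPM in Th1, 1.06 ± 0.394 in TfhA and 0.245 ± 0.183 in Tfh5. It passed only in Tfh5 minus TfhA, 4.14-fold lower (adjusted p = 0.00744), and not in TfhA minus Th1 (log2 0.92 ± 0.55, adjusted p = 0.178) or Tfh5 minus Th1 (log2 -1.13 ± 0.63, adjusted p = 0.124).

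In the ISG15 system, all 3 genes were lower in Tfh5 than in TfhA and than in Th1, and the modifier had a larger fold difference than its ligases. Isg15, which encodes a ubiquitin-like protein that is joined to other proteins, lies at chr4:156199424-156200818 and had 26.2, 22.3, 17.3, 15.9 and 20.8 CPM in Th1, 17.2, 11.9, 19.2 and 14.4 in the TfhA libraries, and 0.666, 0.51, 0.283, 0.285 and 0.0747 in Tfh5. Th1 and TfhA overlapped (log2 -0.39 ± 0.19, adjusted p = 0.0984) and every Tfh5 library was under 1 CPM. Isg15 was 43.7-fold lower in Tfh5 than in TfhA (log2 -5.45 ± 0.30, adjusted p = 7.08e-14) and 57.2-fold lower than in Th1 (log2 -5.84 ± 0.29, adjusted p = 3.70e-15). Herc6, the main ligase for ISG15 in mice, had 25.7 ± 2.35 CPM in Th1, 45.7 ± 4.51 in TfhA and 20.7 ± 4.07 in Tfh5. It was 2.21-fold lower in Tfh5 than in TfhA (adjusted p = 8.92e-08) and 1.78-fold higher in TfhA than in Th1 (adjusted p = 1.65e-05). Against Th1, Tfh5 was 1.24-fold lower with overlapping libraries (adjusted p = 0.0374), a call lost without any 1 of Th1 replicates 2 to 5 or Tfh5 replicates 3 and 5 (adjusted p = 0.0534 to 0.138). Trim25, a ubiquitin and ISG15 ligase that acts on RIG-I, had 101 ± 13.5 CPM in Th1, 112 ± 12.2 in TfhA and 55.6 ± 5.82 in Tfh5. It was 2.02-fold lower in Tfh5 than in TfhA (adjusted p = 1.62e-08) and 1.82-fold lower than in Th1 (adjusted p = 6.84e-08), and TfhA and Th1 did not pass (log2 0.15 ± 0.11, adjusted p = 0.282).

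**Figure D2:**
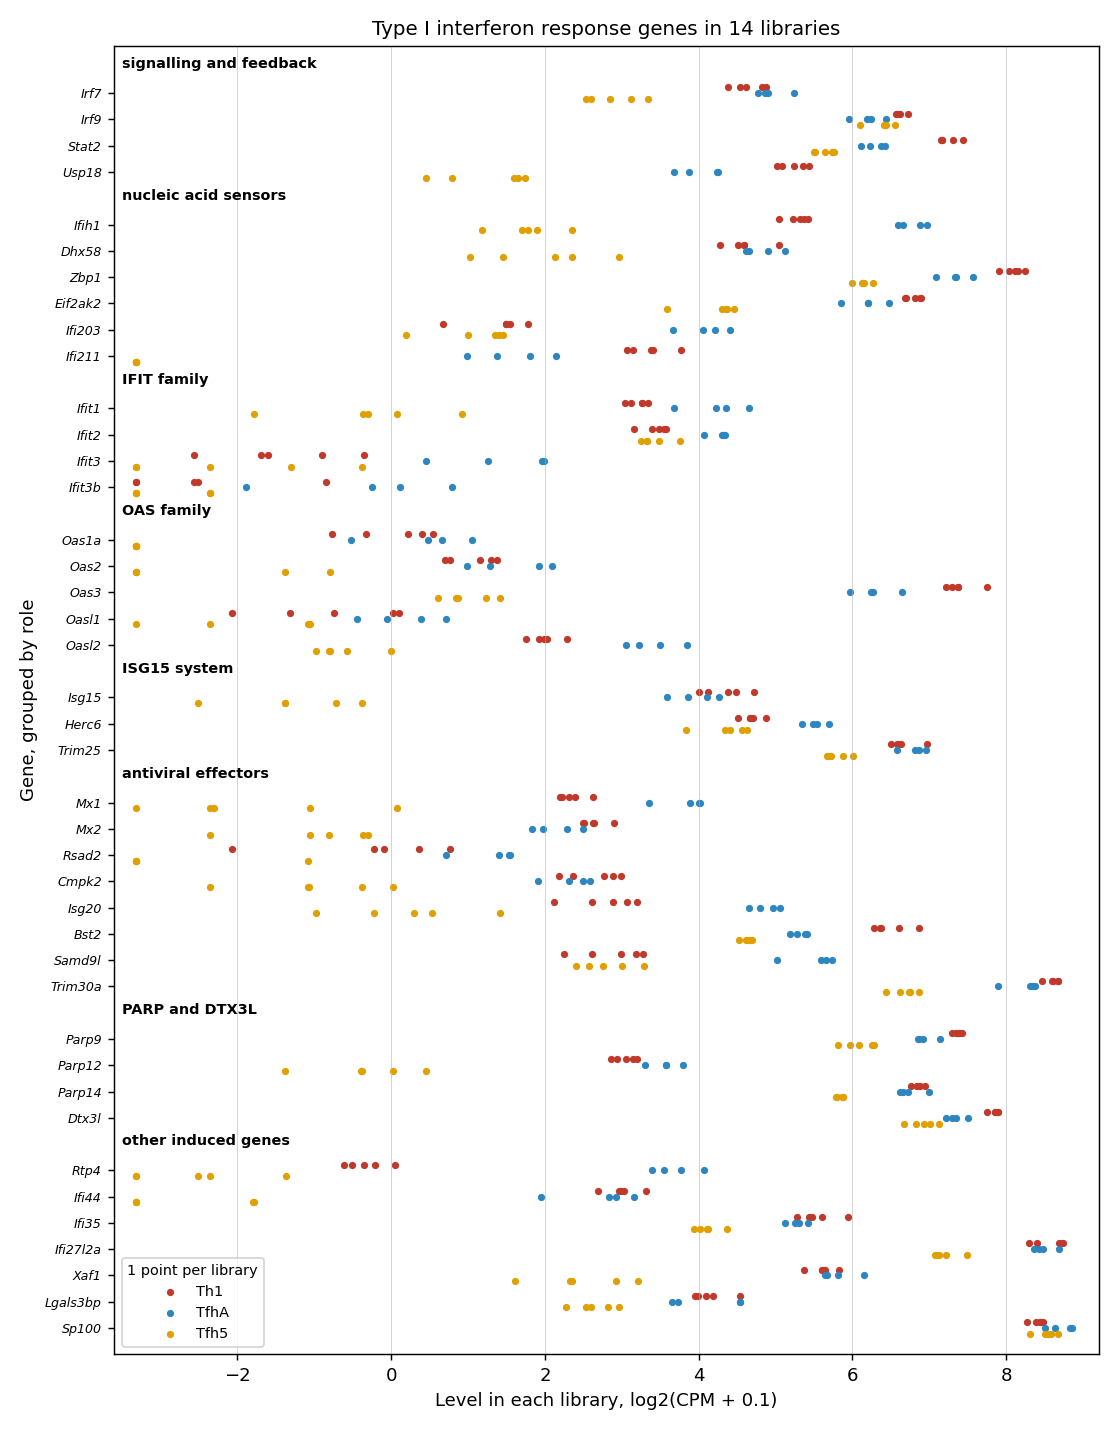
Level of each of the 41 genes in each of the 14 libraries, as log2(CPM + 0.1) on the horizontal axis, grouped by role; each point is 1 library. For 38 tested genes the Tfh5 points lie left of all TfhA points, and Ifi211 and Oas1a lie at the left edge, at 0 counts, in Tfh5.

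All 8 antiviral effectors were lower in Tfh5 than in TfhA, and in TfhA minus Th1 4 were higher, 2 were lower and 2 did not pass, against 23.2% higher and 21.6% lower over all genes. Mx1, a dynamin-like GTPase that blocks influenza virus and is defective in many laboratory strains including C57BL/6, had 4.49, 4.85, 5.14, 4.58 and 6.09 CPM in Th1, 15.9, 10.2, 14.7 and 16.1 in the TfhA libraries, and 0.952, 0.102, 0.0944, 0.38 and 0 in Tfh5. TfhA was highest and Tfh5 lowest with no overlap, and Tfh5 replicate 1 held 10 of the 16 Tfh5 counts. Mx1 was 46.8-fold lower in Tfh5 than in TfhA (adjusted p = 1.11e-11), or 97.1-fold without that replicate, and 16.5-fold lower than in Th1 (adjusted p = 3.94e-09), or 34.4-fold without it. In TfhA minus Th1 it was 2.83-fold higher (adjusted p = 7.91e-05). Its relative Mx2 had 6.14 ± 0.727 CPM in Th1, 4.4 ± 0.932 in TfhA and 0.467 ± 0.249 in Tfh5. It was 9.19-fold lower in Tfh5 than in TfhA and 12.8-fold lower than in Th1 (adjusted p = 1.16e-08 and 2.42e-10), with no call between TfhA and Th1 (log2 -0.47 ± 0.26, adjusted p = 0.14). Mx1 and Mx2 shared 3.91% and 4.38% of their windows with other genes, Rtp4 11.6%, Herc6 12.5% and Ifit1 7.13%. Trim30a shared 5.98%, Sp100 5.86% and Isg15 3.96%. The annotated spans of Ifit1 and Ifit3b also overlap that of Ifit1bl1 (233 counts), by 9121 and 5874 bases. Levels of all these genes could move by the reads from these parts.

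Isg20, an exonuclease that degrades single-stranded RNA, had 7.3, 9.08, 4.23, 6.04 and 8.3 CPM in Th1, 33.3, 25, 31.1 and 27.7 in the TfhA libraries, and 2.57, 0.408, 1.13, 0.759 and 1.34 in Tfh5. TfhA was above Th1, and Th1 above Tfh5, in every library. It was 23.1-fold lower in Tfh5 than in TfhA (adjusted p = 8.99e-13), 4.18-fold higher in TfhA than in Th1 (adjusted p = 7.22e-08) and 5.54-fold lower in Tfh5 than in Th1 (adjusted p = 4.58e-08). Samd9l, a protein that restricts translation and cell growth, had 5.99, 4.65, 9.0, 9.57 and 7.84 CPM in Th1, 52.9, 32.4, 50.3 and 48 in the TfhA libraries, and 6.67, 5.2, 5.85, 9.68 and 7.92 in Tfh5. TfhA alone was high, and Th1 and Tfh5 overlapped (log2 -0.06 ± 0.20, adjusted p = 0.81). Samd9l was 6.2-fold higher in TfhA than in Th1 (adjusted p = 7.25e-11) and 6.47-fold lower in Tfh5 than in TfhA (adjusted p = 2.51e-11).

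Rsad2 and Cmpk2 are neighbouring genes whose enzymes act on nucleotides, viperin being the product of Rsad2. Rsad2 had 0.902 ± 0.54 CPM in Th1, 2.42 ± 0.606 in TfhA and 0.0747 ± 0.167 in Tfh5 and was 24.4-fold lower in Tfh5 than in TfhA (adjusted p = 8.00e-06) and 9.22-fold lower than in Th1 (adjusted p = 0.000828). The Tfh5 libraries overlapped those of Th1 for Rsad2, and so did the TfhA libraries. All 5 of its counts in Tfh5 came from replicate 5, and the other libraries give at least 33.3-fold and 12.6-fold against the floor. Its 2.65-fold higher level in TfhA than in Th1 (adjusted p = 0.03) was no longer called without any 1 of Th1 replicates 3 to 5 or TfhA replicates 1, 4 and 5 (adjusted p = 0.0535 to 0.0808). Cmpk2 had 6.27 ± 1.47 CPM in Th1, 4.99 ± 0.981 in TfhA and 0.486 ± 0.315 in Tfh5. It was 10.3-fold lower in Tfh5 than in TfhA and 12.9-fold lower than in Th1 (adjusted p = 1.68e-08 and 9.42e-10), with TfhA and Th1 not passing (log2 -0.33 ± 0.27, adjusted p = 0.351).

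Bst2, or tetherin, which holds budding virus at the cell surface, had 91.2 ± 15.8 CPM in Th1, 39.7 ± 2.71 in TfhA and 24.7 ± 1.17 in Tfh5. It was 1.6-fold lower in Tfh5 than in TfhA (adjusted p = 1.85e-05) and its promoter holds the core shown above. It was 2.3-fold lower in TfhA than in Th1 (adjusted p = 5.54e-09) and 3.69-fold lower in Tfh5 than in Th1 (adjusted p = 1.15e-13). Trim30a, a TRIM protein that restrains Toll-like receptor signalling, had 389 ± 22.9 CPM in Th1, 302 ± 43.3 in TfhA and 103 ± 11.4 in Tfh5. It was 2.94-fold lower in Tfh5 than in TfhA (adjusted p = 3.25e-12) and 1.29-fold lower in TfhA than in Th1 (adjusted p = 0.00548). Both genes were highest in Th1 and lowest in Tfh5 in every library.

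The PARP genes add ADP-ribose to proteins, and PARP9 works in a complex with the ubiquitin ligase DTX3L. All 4 genes of this list were lower in Tfh5 than in TfhA and in Th1. Parp9 had 165 ± 5.49 CPM in Th1, 123 ± 12 in TfhA and 68 ± 9.11 in Tfh5 and Dtx3l had 230.3 ± 9.35 CPM in Th1, 162 ± 14.1 in TfhA and 121 ± 14.2 in Tfh5. The partners were lower in both steps, with log2 fold changes of -0.86 ± 0.10 and -0.43 ± 0.09 in Tfh5 minus TfhA (adjusted p = 5.62e-08 and 0.000386) and -0.42 ± 0.10 and -0.50 ± 0.09 in TfhA minus Th1 (adjusted p = 0.00124 and 0.00011). Their annotated spans overlap by 558 bases, and reads there cannot be told apart without strand. Parp14 had 116 ± 5.14 CPM in Th1, 108 ± 13.5 in TfhA and 57.2 ± 1.76 in Tfh5, 1.89-fold lower in Tfh5 than in TfhA (adjusted p = 4.03e-09), with no call between TfhA and Th1 (log2 -0.10 ± 0.09, adjusted p = 0.403). Parp12, with 8.15 ± 0.799 CPM in Th1, 11.8 ± 1.64 in TfhA and 0.76 ± 0.364 in Tfh5, stood apart by its size, 15-fold lower in Tfh5 than in TfhA (adjusted p = 3.05e-12) and 10.4-fold lower than in Th1 (adjusted p = 1.90e-11). It was 1.45-fold higher in TfhA than in Th1 (adjusted p = 0.0332), a call that was lost without any 1 of Th1 replicates 2, 4 and 5 or TfhA replicates 1, 2 and 4 (adjusted p = 0.0559 to 0.123).

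Among the other induced genes, Rtp4, which encodes a Golgi protein that assists receptor transport, had 0.935, 0.763, 0.605, 0.555 and 0.685 CPM in Th1, 16.7, 10.4, 13.5 and 11.6 in the TfhA libraries, and 0.286, 0, 0.0944, 0 and 0.0747 in Tfh5. It was near absent in Tfh5, low in Th1 and high in TfhA, with no overlap. Rtp4 was 129-fold lower in Tfh5 than in TfhA (log2 -7.01 ± 0.41, adjusted p = 3.13e-13), 18.1-fold higher in TfhA than in Th1 (adjusted p = 3.32e-11) and 7.13-fold lower in Tfh5 than in Th1 (adjusted p = 7.39e-05). Tfh5 replicate 1 held 3 of its 5 counts in that group, and the other 4 libraries gave ratios of 293 (95% counting interval 80.7 to 2424) to TfhA and 15.9 (4.17 to 135) to Th1. Ifi44, an induced gene whose protein is linked to control of virus growth and of the response itself, had 7.86, 7.7, 9.83, 6.38 and 8.07 CPM in Th1, 8.79, 3.75, 7.47 and 7.0 in the TfhA libraries, and 0.19, 0, 0.189, 0 and 0 in Tfh5. Th1 and TfhA overlapped (log2 -0.24 ± 0.26, adjusted p = 0.483) and Tfh5 held 4 counts in all, 2 each in replicates 1 and 3. Ifi44 was 81.1-fold lower in Tfh5 than in TfhA (adjusted p = 2.53e-11) and 95.5-fold lower than in Th1 (adjusted p = 3.25e-12). Without replicate 1 the ratios to TfhA and Th1 were 150.0 (95% counting interval 41.2 to 1244) and 176 (48.4 to 1455), and without replicate 3 they were 149.7 (41.1 to 1242) and 175 (48.3 to 1452).

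Xaf1, which binds the apoptosis inhibitor XIAP, had 48.9 ± 5.53 CPM in Th1, 57 ± 9.73 in TfhA and 5.91 ± 2.42 in Tfh5, and was 9.66-fold lower in Tfh5 than in TfhA (adjusted p = 3.37e-13) with no call between TfhA and Th1 (log2 0.22 ± 0.17, adjusted p = 0.297). Ifi35, which forms a complex with NMI, had 47.3 ± 8.65 CPM in Th1, 38.8 ± 3.38 in TfhA and 17.2 ± 2.01 in Tfh5, and was 2.25-fold lower in Tfh5 than in TfhA (adjusted p = 3.79e-08). In TfhA minus Th1 it missed the threshold (log2 -0.29 ± 0.13, adjusted p = 0.0694) and passed without Th1 replicate 3 (adjusted p = 0.0318). Lgals3bp, a secreted glycoprotein, had 17.9 ± 3.1 CPM in Th1, 18 ± 5.96 in TfhA and 6.21 ± 1.15 in Tfh5, with 2.89-fold less in Tfh5 than in TfhA (adjusted p = 5.38e-07) and no call between TfhA and Th1 (log2 0.01 ± 0.19, adjusted p = 0.976). Ifi27l2a, a small mitochondrial protein, had 382 ± 51.6 CPM in Th1, 360.3 ± 36.9 in TfhA and 148 ± 18.6 in Tfh5, and was 2.43-fold lower in Tfh5 than in TfhA (adjusted p = 2.73e-10), with TfhA and Th1 not passing (log2 -0.08 ± 0.11, adjusted p = 0.556). The annotated span of Ifi27l2a overlaps that of Ifi27 by 6057 bases, which leaves its level uncertain. These 4 genes were also lower in Tfh5 than in Th1, by 2.58 to 8.28-fold. Sp100, a protein of nuclear bodies, was the exception, with 339 ± 19.2 CPM in Th1, 420.1 ± 46.9 in TfhA and 369 ± 33.9 in Tfh5. It was 1.24-fold higher in TfhA than in Th1 (adjusted p = 0.00912), and Tfh5 passed against neither TfhA (log2 -0.19 ± 0.09, adjusted p = 0.0899) nor Th1 (log2 0.12 ± 0.09, adjusted p = 0.237). Without TfhA replicate 2 it was called lower in Tfh5 than in TfhA (log2 -0.25, adjusted p = 0.0344).

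Read over the 3 groups, most members had their lowest level with TGF-β and differed in where TfhA stood. In 33 of 40 members Tfh5 was lower than both other groups, against 22.1% of all tested genes. Of these, 9 were higher in TfhA than in Th1 (Ifih1, Ifit1, Oasl2, Herc6, Mx1, Rsad2, Isg20, Parp12 and Rtp4), against 4.71% of all genes. Another 10 were lower in TfhA than in Th1 (Stat2, Usp18, Zbp1, Eif2ak2, Ifi211, Oas3, Bst2, Trim30a, Parp9 and Dtx3l), against 6.36%, and 14 were not called between TfhA and Th1, against 11.1%. In addition, 4 members (Ifi203, Ifit2, Ifit3 and Samd9l) were higher in TfhA than in both others with no call between Tfh5 and Th1, against 4.79% of all genes. TfhA thus stood above both others in 13 of 40 members, against 10.6%. The signalling genes Irf9, Stat2 and Usp18 were highest in Th1, whereas all tested IFIT genes were highest in TfhA.

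Beside the members that were high in TfhA, B cell markers were also highest there. Of 3 tested B cell markers, 2 (Ms4a1 and Cd22) were lower in Tfh5 than in TfhA and 1 (Ms4a1) was higher in TfhA than in Th1. The 4 markers summed to 3.79 to 7.04 CPM in TfhA, 1.32 to 2.74 in Th1 and 0.299 to 1.42 in Tfh5, and Pax5 had 12, 0 and 2 counts over those groups. Myeloid markers summed to 4.25 to 7.04 CPM in TfhA, 3.66 to 6.45 in Th1 and 1.71 to 6.02 in Tfh5, and of the 5, Cd68 and Itgam had enough counts for the test. Itgam, an integrin chain of myeloid and some lymphoid cells, had 0.15 ± 0.131 CPM in Th1, 2.02 ± 0.601 in TfhA and 0.865 ± 0.461 in Tfh5, 2.26-fold lower in Tfh5 than in TfhA and 12.3-fold higher in TfhA than in Th1 (adjusted p = 0.0362 and 1.38e-05), while Cd68 did not pass in any comparison (adjusted p = 0.879, 0.363 and 0.383). Of the CD8 and NK cell markers, Eomes and Cd8b1 were tested. Eomes, a factor of cytotoxic cells that CD4 T cells can also express, had 3.59 ± 0.58 CPM in Th1, 2.35 ± 1.1 in TfhA and 0.357 ± 0.192 in Tfh5 and was 6.54-fold lower in Tfh5 than in TfhA and 10-fold lower than in Th1 (adjusted p = 6.69e-06 and 7.32e-08). Cd8b1 did not pass in any comparison (adjusted p = 0.518, 0.0625 and 0.157), Cd8a had 34, 87 and 2 counts over Th1, TfhA and Tfh5, and Klrb1c had 1, 0 and 50. The part of these markers in the result was not tested.

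Levels of different members were compared per length of exon. Ifi27l2a had the highest level in each group, with 825 CPM per kilobase in Th1, 778 in TfhA and 320 in Tfh5. Trim30a and Bst2 followed in Th1 at 94.7 and 101, Trim30a (73.6) and Sp100 (55.6) in TfhA, and Sp100 (48.8), Bst2 (27.4) and Trim30a (25) in Tfh5. At the bottom of Tfh5 were Ifi44 at 0.0124 CPM per kilobase and Ifi211 and Oas1a at 0. In CPM, 13 members reached 50 in Th1, 14 in TfhA and 9 in Tfh5, while 6, 1 and 16 were under 1.

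The genes before the response in the pathway gave no such common direction. Of the 11 interferon genes chosen for the list, Ifng was the one with enough counts for the test. Other interferon genes of the table were not looked up. Ifng, which encodes interferon-γ, had 623 ± 80.3 CPM in Th1, 17.3 ± 9.97 in TfhA and 0.832 ± 0.313 in Tfh5, 20.2-fold lower in Tfh5 than in TfhA and 36.3-fold lower in TfhA than in Th1 (adjusted p = 5.34e-11 and 1.20e-14). Ifnb1 had 0, 2 and 3 counts over Th1, TfhA and Tfh5, Ifna4 had 13, 6 and 0, and Ifna1, Ifna2, Ifna5 and Ifne had 0 in all groups. Over the same groups Ifnz had 6, 8 and 4 counts and Ifnk 9, 0 and 0. Transcripts of the listed type I interferon genes were thus at or near the limit of detection at this depth.

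Of 9 receptor and kinase genes, 5 were higher in Tfh5 than in TfhA, 1 was lower and 3 did not pass, against 27.4% higher and 30.1% lower over all genes. Ifnar1 had 118 ± 6.51 CPM in Th1, 118 ± 9.36 in TfhA and 119 ± 7.32 in Tfh5. Its log2 fold changes were 0.02 ± 0.09, -0.01 ± 0.09 and 0.01 ± 0.08 in Tfh5 minus TfhA, TfhA minus Th1 and Tfh5 minus Th1 (adjusted p = 0.897, 0.938 and 0.956), so the SE of each was near 0.09 and no difference was detected. Ifnar2, the other chain, had 78.2 ± 3.46 CPM in Th1, 73.8 ± 5.43 in TfhA and 127 ± 10.7 in Tfh5, 1.73-fold higher in Tfh5 than in TfhA (adjusted p = 5.77e-08). Jak1 had 327 ± 7.14 CPM in Th1, 463 ± 32.5 in TfhA and 610.0 ± 45.8 in Tfh5, 1.32-fold higher in Tfh5 than in TfhA (adjusted p = 0.000236) and 1.86-fold higher than in Th1 (adjusted p = 3.16e-10). Tyk2 was 1.23-fold higher in Tfh5 than in TfhA (adjusted p = 0.0262) and 1.42-fold lower in TfhA than in Th1 (adjusted p = 0.000626). Ifngr2, a chain of the interferon-γ receptor, had 11.8 ± 1.77 CPM in Th1, 16.2 ± 1.98 in TfhA and 134 ± 15.7 in Tfh5 and was 8.22-fold higher in Tfh5 than in TfhA (adjusted p = 5.49e-16), the largest fold between Tfh5 and TfhA in this list. Ifnlr1, a chain of the type III interferon receptor, was chosen after its values were seen and had 4.06 ± 1.03 CPM in Th1, 0.11 ± 0.107 in TfhA and 0.239 ± 0.173 in Tfh5, with 289, 5 and 13 counts over those groups. It was 32.7-fold lower in TfhA and 16.4-fold lower in Tfh5 than in Th1 (adjusted p = 1.33e-07 and 5.11e-08), and Tfh5 did not pass against TfhA (log2 0.99 ± 0.80, adjusted p = 0.304). In Tfh5 minus TfhA, Ifngr1 was 1.28-fold higher (adjusted p = 0.000738) and Jak2 1.35-fold lower (adjusted p = 0.000172).

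**Figure D3:**
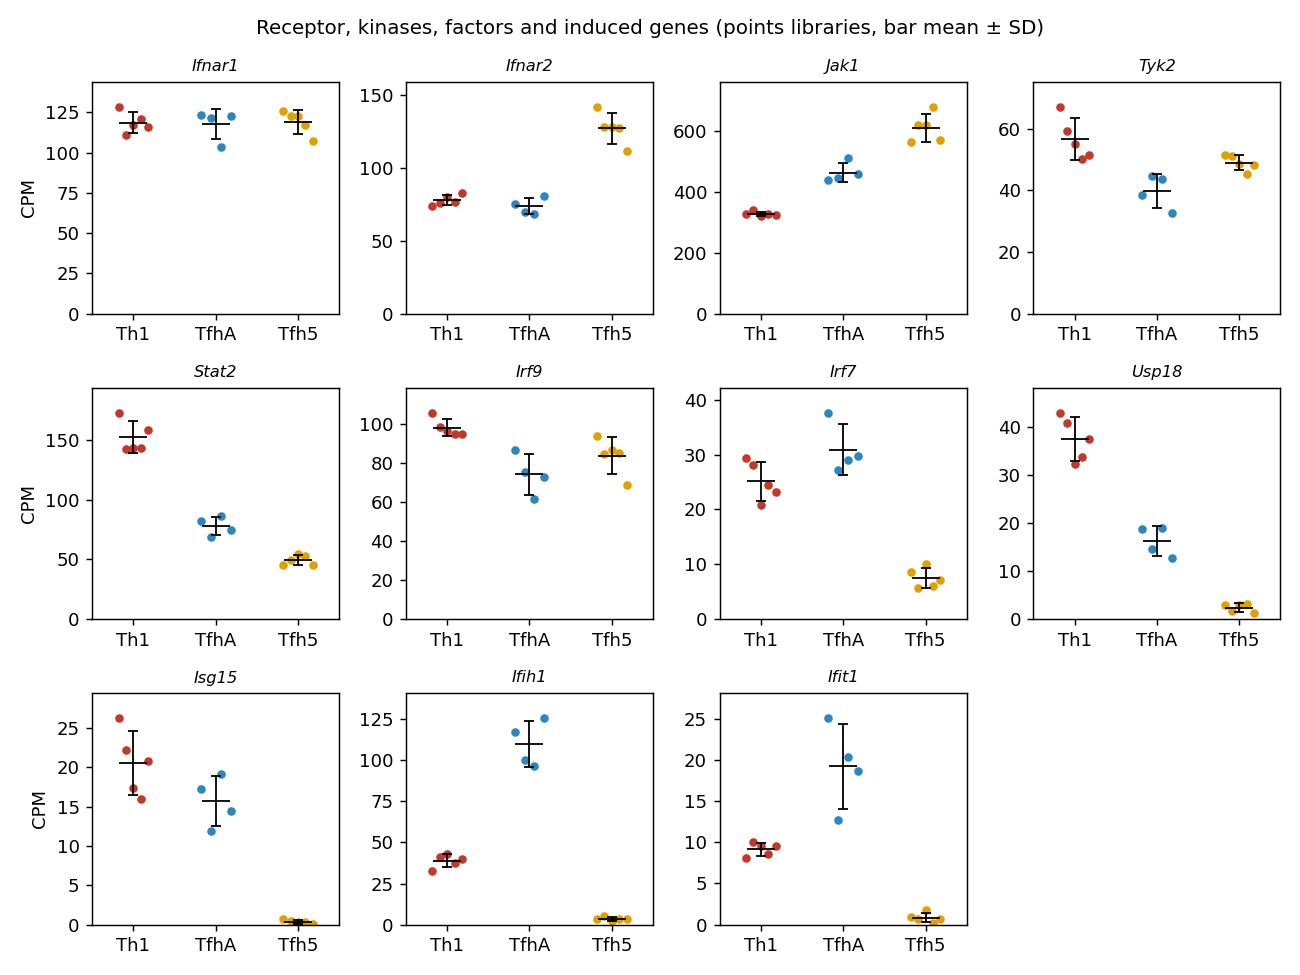
CPM by library (points) with mean and SD (bars) in Th1, TfhA and Tfh5 for receptor chains, kinases, factors and induced genes, each on its own axis from 0. Ifnar1 is level near 118 CPM in the 3 groups and Ifnar2 and Jak1 are highest in Tfh5, while Irf7, Usp18, Isg15, Ifih1 and Ifit1 are lowest there.

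Of 12 factors and inhibitors, 6 were higher in Tfh5 than in TfhA, 3 lower and 3 did not pass, against the same 27.4% and 30.1%. Irf1, a factor induced by interferons, had 213 ± 24.2 CPM in Th1, 70.6 ± 5.2 in TfhA and 45.6 ± 3.02 in Tfh5 and was lower in Tfh5 than in TfhA by 1.55-fold and in TfhA than in Th1 by 3.02-fold (adjusted p = 4.99e-06 and 2.17e-12). Irf8, a factor of myeloid and lymphoid cells, had 321 ± 48.6 CPM in Th1, 12.3 ± 2.73 in TfhA and 31 ± 2.3 in Tfh5. It was 2.5-fold higher in Tfh5 than in TfhA (adjusted p = 9.10e-09), but 10.4-fold lower in Tfh5 and 25.9-fold lower in TfhA than in Th1 (adjusted p = 8.26e-18 and 2.28e-17). Irf4, a factor of lymphocyte activation, had 2212 ± 104 CPM in Th1, 1011 ± 92.1 in TfhA and 2224 ± 69.6 in Tfh5, 2.2-fold higher in Tfh5 than in TfhA and 2.19-fold lower in TfhA than in Th1 (adjusted p = 4.79e-11 and 1.48e-10). The phosphatase gene Ptpn6 was 1.57-fold lower, Stat3 was 1.47-fold higher and Irf2 1.36-fold higher (adjusted p = 3.74e-06, 1.99e-05 and 0.00135).

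Of 18 tested genes of the pathway that induces interferon, 6 were higher in Tfh5 than in TfhA, 5 lower and 7 did not pass, shares near the 27.4% and 30.1% of all genes. Ddx58, which encodes RIG-I and is itself induced by interferon, was 2.7-fold lower and Cgas, the DNA sensor, 2.12-fold lower (adjusted p = 7.02e-10 and 6.67e-06). Unc93b1, needed by Toll-like receptors of endosomes, was 1.84-fold lower, and Adar, an RNA editing enzyme, 1.57-fold lower (adjusted p = 0.000437 and 1.85e-06). The adaptors Ticam1 and Traf6 were 1.61-fold and 1.37-fold higher (adjusted p = 0.000147 and 0.000138).

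A second list held 60 other interferon-induced genes. Like the members, they were chosen with earlier results of these data known, so their counts are no independent support. Of 52 tested, 39 were lower in Tfh5 than in TfhA, 2 were higher and 11 did not pass, with a median log2 fold change of -0.81 (30.1% lower and 27.4% higher over all genes). In TfhA minus Th1, 18 were higher and 11 lower (median 0.06), against 23.2% and 21.6% of all genes. In Tfh5 minus Th1, 5 were higher and 32 lower (median -0.49), against 31.5% and 33.0%. Ms4a4c and Ms4a4b, membrane proteins of T cells, were 65.8-fold and 14.3-fold lower in Tfh5 than in TfhA (adjusted p = 8.59e-18 and 2.92e-18), and Ddx60, a helicase, 21.3-fold lower (adjusted p = 1.43e-11). Ifitm3 and Ifitm2, which block virus entry, had 363 ± 54.7 CPM in Th1, 52.5 ± 11.6 in TfhA and 3.72 ± 1.3 in Tfh5 and 210.4 ± 19.3 CPM in Th1, 80.2 ± 8.23 in TfhA and 5.63 ± 2.1 in Tfh5. Both were lower in TfhA than in Th1, by 6.91-fold and 2.62-fold, and lower in Tfh5 than in TfhA by 14-fold and 14.3-fold (adjusted p = 8.29e-15 and 2.57e-15).

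The promoter windows were also read for other forms of the element. A longer form, the core followed by CT, overlaps the core by construction. It was in 6 of 31 promoters (19.4%), those of Bst2, Ifit1, Ifit3, Ifit3b, Oas1a and Trim30a, against 0.303% of genes and 0.271% of promoter windows. The gamma-activated element, searched as TTCNNNGAA on both strands, was in 6 of 31 (19.4%), against 9.55% of genes and 8.3% of windows. The core was in the promoters of Eif2ak2, Ifi203, Ifih1, Isg15, Oas3, Rsad2, Stat2 and Ifi211 besides the 6 above. The 13 tested members with the core had log2 fold changes in Tfh5 minus TfhA from -8.21 (Ifi211, against 0 counts) to -0.65 (Stat2), with a median of -4.47. The 17 tested members with a promoter and no core ranged from -6.34 (Ifi44) to 0.17 (Irf9), with a median of -2.05. No test was made of that difference. A match is a description of letters, and Ifit3 and Ifit3b share theirs.

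Libraries of a group were close for the members together and varied for single ones. Their summed level ranged over 2816-3159 CPM (Th1), 2403-2862 (TfhA) and 1168-1339 (Tfh5), with means of 2995 ± 141, 2667 ± 207 and 1264 ± 62.2. The sum is weighted toward abundant members and says little about scarce ones. Its largest parts in Tfh5 were Sp100 (369 CPM), Ifi27l2a (148), Dtx3l (121) and Trim30a (103). The median coefficient of variation over members with at least 1 CPM was 12.8% in Th1 (35 members), 17.2% in TfhA (40) and 15% in Tfh5 (25). Within TfhA, replicate 1 was highest for 20 of 41 members and replicate 2 lowest for 24, and within Th1 replicate 1 was highest for 18 of 41. In Tfh5, replicate 1 was highest for 15 of 39 members with counts. That library also had 16.1 CPM of the granzyme gene Gzmb, against 1.61 to 3.74 in the other Tfh5 libraries and 1295 to 1776 in TfhA. Without it, 38 members were lower and 0 higher in Tfh5 than in TfhA. In Tfh5 the lowest coefficient was that of Parp14 (3.08%) and the highest that of Isg20 (66.3%).

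**Figure D4:**
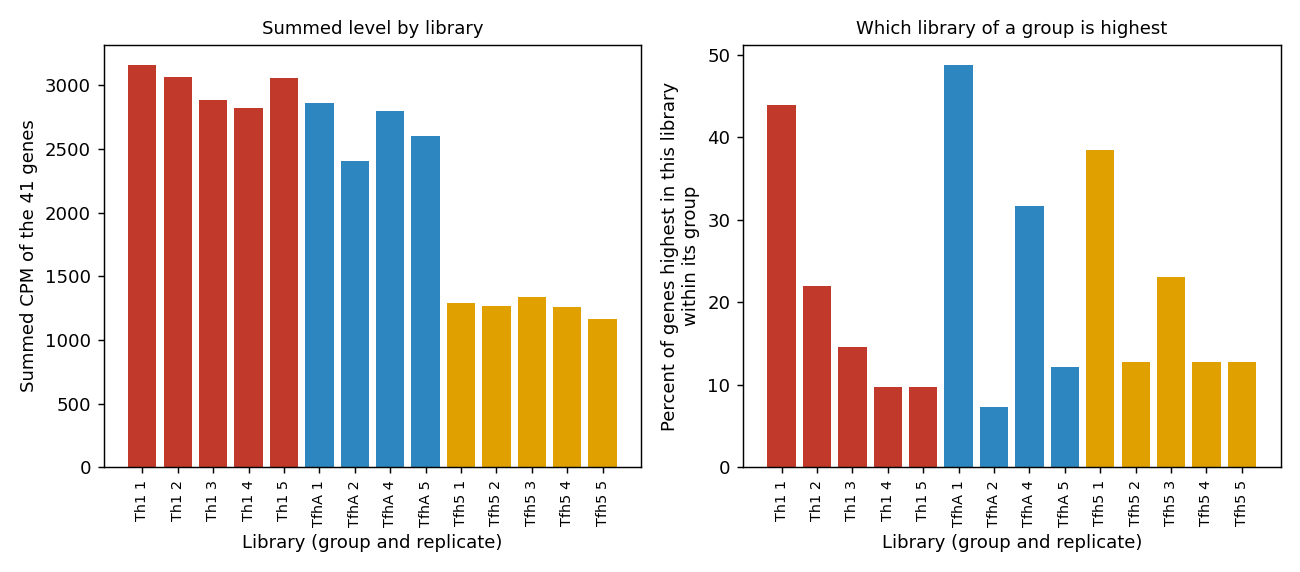
Summed CPM of the 41 genes in each library (left, bars from 0) and the percentage of genes with counts in the group that are highest in that library within its group (right). The 5 Tfh5 libraries lie between 1168 and 1339 CPM, below all others, and on the right replicate 1 is highest in each group.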

How the data were processed

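RNA of the 14 libraries had been prepared with the Lexogen SENSE kit and sequenced in bulk, per the labels' protocols. The authors deposited raw counts per gene under Entrez identifiers, and the submitters' processing notes name STAR 2.7.2b, featureCounts 1.6.4 and genome build mm10. Neither strand use, gene annotation nor the counting of multi-mapping reads is stated in the labels. The series table was identical to the 14 single files, with 0 columns of other samples. Of its 27179 genes, 25275 had a symbol in RefSeq and 1904 had none (1.91% of counts).

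Counts were analysed with R 4.3.3, edgeR 4.0.16 and limma 3.58.1: filterByExpr (13075 genes), TMM scaling, group means for the 14 libraries and a quasi-likelihood F test with Benjamini-Hochberg adjustment. DESeq2 1.42.0, other scalings, no filter, fits of only 2 groups, a replicate block and each library left out were alternatives. The common biological coefficient of variation was 14.25%, and replicates differed by more than counting error (chi-square per degree of freedom 4.15 to 30.6 over 26 pairs). On simulated counts for 12787 genes with Tfh5 changed in 200, the fit recovered 86.7% at a log2 size of 1 and 97.9% at 2. It made 7 false calls in Tfh5 minus TfhA. The simulation used 1 spread for all genes and far fewer changed genes than were called here, so these rates need not hold here. Same-numbered libraries of different groups correlated at -0.048 to 0.155 in their deviations over 13 pairs, 1 of them over 0.1, so the numbers were not taken as pairs. Differently numbered libraries reached 0.327 (Th1 replicate 1 with TfhA replicate 2) and -0.368 (Th1 replicate 1 with TfhA replicate 5). The fit did not model this, and its source was not tested. Counting intervals and floors of 3 counts over a group cover counting error only. Shared sequence was read as 50-base windows of GENCODE M21 transcripts, and promoters came from RefSeq for GRCm38.p6.

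The members and all gene lists were chosen with earlier results of these data known. Each member is named, with values in every library for Irf7, Irf9, Stat2 and Usp18 and, per comparison, for the 6 called members with the largest log2 fold change and at least 5 CPM in the higher group. Of the other lists, up to 6 genes with at least 10 CPM in a group are named by size of change in Tfh5 minus TfhA, with Ifnar1, Ifnar2, Jak1, Tyk2, Ifnb1 and Ifng always. Marker genes, Ifna4, Ifnk, Ifnz and the ligands at 0, Mndal as a partner of Ifi211, Ifnlr1 and Gzmb stand outside this rule. A factor and a cell marker of these lists are not reported here and were left out of the list counts and sums.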

Additional observations from a re-analysis of the deposited data

Results flagged for a closer look

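Of 121 groups of libraries checked over the members, 7 had 1 library set apart from the rest by the gap to its neighbour, and chance sets apart about 1 group in 20. In Th1, replicate 1 was high for Oas3 (214 CPM, the next library 166) and for Trim25 (125 CPM, the next 99.1), and replicate 5 was high for Ifit3b (0.457 CPM from 6 counts, the next 0.0756). In TfhA, replicate 1 was low for Ifit2 (16.7 CPM, the next 19.7) and replicate 2 was low for Trim30a (238 CPM, the next 317). In Tfh5, replicate 1 was low for Eif2ak2 (11.9 CPM, the next 19.7), and replicate 5 was high for Rsad2 (0.374 CPM from 5 counts, the others at 0).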

How the results depend on the processing

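Over 2393 values of single members under the alternatives, 2331 kept their direction and their side of the threshold, 32 lost the call, 7 gained one and 23 changed sign. Any value without an adjusted p counted as kept if its direction held. Members that an alternative did not test are not among the 2393. The sign changes lay in differences that were not called and were near 0. For Lgals3bp in TfhA minus Th1, the log2 fold change was -0.004458 with RLE scaling, -0.01774 with upper-quartile scaling, -0.02607 with no filter, -0.01227 with only the 2 groups, -0.004503 with DESeq2 and -0.1405 to 0.1408 with 1 library left out. For Ifit2 in Tfh5 minus Th1 it was -0.008646 with RLE scaling, -0.01089 with upper-quartile scaling, -0.01747 with no filter, -0.00633 with DESeq2 and -0.08815 to 0.05269 with 1 library left out. For Samd9l in Tfh5 minus Th1 it was -0.1917 to 0.05086 with 1 library left out. The cause was not tested. With 1 library left out, the members called lower numbered 38 to 39 in Tfh5 minus TfhA, 11 to 12 in TfhA minus Th1 and 32 to 34 in Tfh5 minus Th1, and those called higher 0 to 1, 12 to 14 and 0. With only the 2 groups compared, the counts lower were 36, 14 and 29. The filter on low counts was run anew on those 2 groups, and members it left out of the test are missing from these counts. No member still tested lost its call in Tfh5 minus TfhA. In that fit Isg15, Mx2 and Ifi35 were called lower in TfhA than in Th1 (adjusted p = 0.0458, 0.0448 and 0.0457), and Irf9 and Herc6 lost their calls in Tfh5 minus Th1 (adjusted p = 0.0527 and 0.0748). With no filter, Ifi35 gained a call (adjusted p = 0.0487) and Parp12 lost one (adjusted p = 0.0652) in TfhA minus Th1. No scaling moved the median of all genes by over 0.1 on the log2 scale. The longer form of the element was in 6 promoters and the core in 14, since the longer form contains it, and the core was in 12 in the 250 bases before the start.

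The replicate block, fitted although the numbers did not pair the libraries, gave 38, 11 and 34 members lower and 0, 12 and 0 higher in the 3 comparisons. In TfhA minus Th1 under the block, Rsad2 (adjusted p = 0.0715) and Parp12 (adjusted p = 0.0821) were not called and Lgals3bp had a log2 fold change of -0.04746. Depth limits Rtp4, Rsad2, Ifi44, Oas2, Ifit3, Ifit3b, Oas1a and Ifi211, which had 11 counts or fewer over the 5 Tfh5 libraries.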

Other observations

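A few genes of the second interferon-induced list stood against the common direction, chosen here after their values were seen. Aim2, a cytosolic DNA sensor that starts inflammasome assembly, had 17.2 ± 1.61 CPM in Th1, 16.8 ± 2.90 in TfhA and 41.1 ± 4.38 in Tfh5. It was higher in Tfh5 than in TfhA (log2 fold change 1.29, adjusted p = 1.17e-08 in edgeR) and than in Th1 (1.26, adjusted p = 2.69e-09). Slfn2, a Schlafen gene needed for T cell quiescence in mice, had 78.5 ± 10.2 CPM in Th1, 198 ± 26.9 in TfhA and 214 ± 19.5 in Tfh5. Both follicular helper groups were above Th1 (log2 fold changes 1.33 and 1.45), and they did not pass against each other (0.11, adjusted p = 0.378 in edgeR).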
